A study of Homo sapiens with 4 samples.

Results

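The DNA immunoprecipitated with the glucocorticoid receptor (GR) was compared with the DNA that a non-specific IgG brought down from the same kind of cells. All distinct cytosines of the 2 GR hexamers AGAACA and TGTTCT were taken, at any distance from a transcription start site (TSS), which gave 8107 sites in the anti-Flag library of GR and 2715 in its IgG control. Together these are 10822 of the 15177 sites of the whole series. Both libraries came from HEK-293T, a line of human embryonic kidney cells, co-transfected with the vectors GR-pCMV14 and DNMT3A-pLX304. GR carried a Flag tag, and DNMT3A, a DNA methyltransferase, was added by the authors to raise methylation outside CpG. Both received dexamethasone, the GR ligand, at 4 nM, given as 24 h in the labels. The antibody was therefore the only labelled difference, and overexpression of the tagged factor and of DNMT3A is shared by the control. There was 1 library on each side, so no value has a replicate error. The tests take sites or reads as their units, and so compare these libraries, not the antibodies in general.

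GR is a nuclear receptor that stays in the cytoplasm until a glucocorticoid binds it, and then enters the nucleus. It binds as a dimer to glucocorticoid response elements, and each monomer reads a hexamer of the AGAACA type. The hexamer holds no CpG, so its cytosines can be methylated only in the non-CpG context, which DNMT3A and DNMT3B are known to write and which is rare in most somatic cells. In bisulfite sequencing an unmethylated cytosine is read as T and a methylated one as C. A cytosine that escaped conversion is also read as C. The reads called methylated here can be of either kind in both libraries, and the rate of conversion was not tested.

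The counted cytosine is the fifth base of either hexamer, AGAACA or TGTTCT. The hexamers are reverse complements, so each place in the genome holds 1 cytosine of each kind, on opposite strands. For 3 sites close to a TSS, a RefSeq promoter sequence of GRCh38.p14 under the same gene symbol holds the hexamer on the right strand within 2 bp of the listed distance, and these are printed to show what a site looks like in its surroundings, on the strand of the gene and with the hexamer in capitals. They were matched by symbol and distance and not by position, since the deposited positions are in hg18.
NEB: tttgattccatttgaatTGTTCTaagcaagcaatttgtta
PCDH11X: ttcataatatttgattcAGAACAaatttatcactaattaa
ZNF540: gtccggcgctccAGAACAgaacgatccctg
The NEB window, upstream of the gene of the muscle protein nebulin, is chr2:151734615-151734654 on the minus strand. Its site in the GR library, at hg18 position 152299393 of chromosome 2 and 158 bp from the TSS, had 0 methylated of 6 reads, for a limit of 50%. The PCDH11X window, upstream of a protocadherin gene, is chrX:91835290-91835329 on the plus strand. Its site was read in the IgG control, at hg18 position 90976966 and 149 bp from the TSS, with 0 of 4 reads methylated. The ZNF540 window, just downstream of the start of a zinc finger gene, is chr19:37594888-37594917 on the plus strand, and its site in the GR library, at hg18 position 42777645, had 0 of 4 reads methylated. Of 35116 RefSeq promoters of one length, 14.8% hold AGAACA or TGTTCT on either strand.

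The libraries did not hold the hexamers in the same proportion. The GR library had 1149 AGAACA and 6958 TGTTCT sites, or 0.165 AGAACA sites per TGTTCT site. The IgG control had 2100 AGAACA and 615 TGTTCT sites, or 3.41. Relative to the IgG control, the deposited GR tables thus held 11.3 times as many TGTTCT sites and 0.547 times as many AGAACA sites. The strands were used about equally, with 4045 sites on the plus and 4062 on the minus strand under anti-Flag, against 1315 and 1400 under IgG. Both cytosines of 1 hexamer were listed for 20 hexamers in the GR library, which is 1.74% of its AGAACA and 0.287% of its TGTTCT sites, and for 28 in the IgG control, 1.33% of its AGAACA and 4.55% of its TGTTCT sites. In the GR library every AGAACA site stood in the deposited table more than once, 686 sites in 2 identical rows and 463 in 4, whereas no IgG row was repeated. Whether the GR table of AGAACA holds all sites of its library is not known, so the counts of AGAACA sites may be those of the table and not of the library. What produced the proportions was not tested. The tests of shares were made within a hexamer, whereas the counts of genes, gene families and neighbouring sites take both hexamers together and carry their unequal mix.

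Depth was low on both sides. The GR library had 51518 reads over its sites and the IgG control 14143, and the median was 4 reads per site, the minimum the authors kept, in both. Sites with exactly 4 reads made up 81.5% of the AGAACA and 79.2% of the TGTTCT sites of the GR library, against 76.0 and 80% in the IgG control. Sites with 7 or more reads made up 2.14% of the TGTTCT sites under anti-Flag and 5.04% under IgG (Fisher's exact test, two-sided, Benjamini-Hochberg adjusted p = 2.39e-04 over 26 tests). Without mitochondrial, unplaced and transfected loci the shares were 1.73 and 2.07% (adjusted exact p = 0.624). For AGAACA the shares were 2.52 and 3.24%, a difference of -0.714 percentage points with a 95% interval of -1.85 to 0.558 (adjusted exact p = 0.349). The 10 sites with the most reads held 26.9% of all reads of the GR library. Taken by hexamer, the 10 deepest sites of the IgG control held 9.41% of its AGAACA and 33.2% of its TGTTCT reads, and those of the GR library 55.7 and 24.1%.

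At equal depth, cytosines with a methylated read were several times more frequent in the IgG control than in the GR library. Among AGAACA sites with exactly 4 reads, 22 of 936 had a methylated read in the GR library (2.35%, exact 95% interval 1.48 to 3.54%) and 420 of 1595 in the IgG control (26.3%, interval 24.2 to 28.6%), which is 11.2 times the share (Fisher's exact test, two-sided, adjusted p = 1.01e-64). Among TGTTCT sites with 4 reads the counts were 106 of 5509 (1.92%, interval 1.58 to 2.32%) and 86 of 492 (17.5%, interval 14.2 to 21.1%), a ratio of 9.08 (adjusted exact p = 2.37e-43). The order was the same in all 8 combinations of hexamer and depth, and 7 of them passed.

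The difference in sites with a methylated read held at each depth below 7 reads. With 5 reads it was 3.75% against 35.4% for AGAACA (adjusted exact p = 2.57e-16) and 3.63% against 18.8% for TGTTCT (adjusted exact p = 1.65e-05). With 6 reads it was 1 of 24 against 41 of 90 sites for AGAACA (adjusted exact p = 2.45e-04) and 16 of 225 against 6 of 23 for TGTTCT (adjusted exact p = 0.0166). Sites with more reads have more chances of holding 1 methylated read, so this share was tested only within a depth. With 7 or more reads the AGAACA shares were 51.7% of 29 and 57.4% of 68 sites, and the difference of -5.63 points had an interval of -26.2 to 15.0 (adjusted exact p = 0.714). For TGTTCT they were 29.5% of 149 and 67.7% of 31 sites (adjusted exact p = 3.18e-04). In this last class the depths are not equal, since the sites of the class in the GR library reach 3393 reads and those of the IgG control 477.

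**Figure D1:**
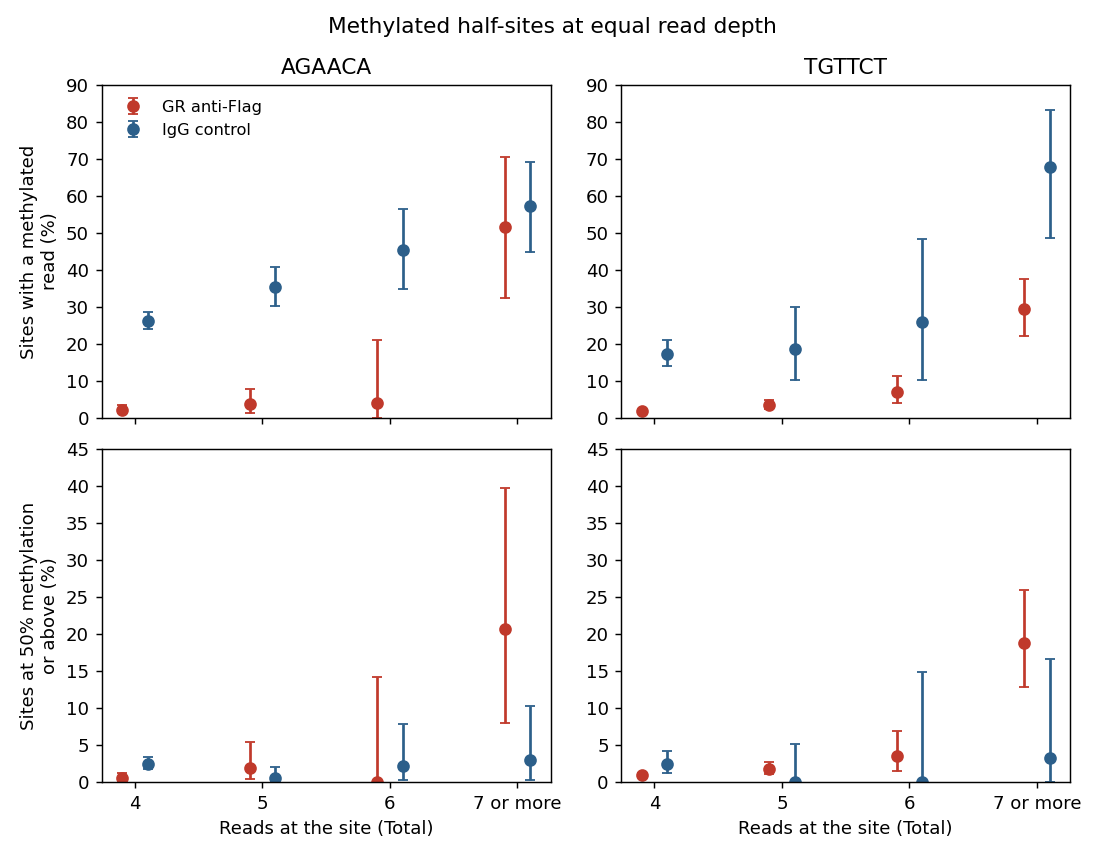
Share of sites with a methylated read (upper panels, percent) and of sites at 50% methylation or above (lower panels, percent) by the number of reads at the site, for AGAACA and TGTTCT. Points are shares of 1 library and bars are exact 95% binomial intervals. With 4 reads the IgG control stands at 26.3 and 17.5% in the upper panels against 2.35 and 1.92% for GR, while with 7 or more reads GR has the higher share in the lower panels, 20.7 and 18.8%.

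The number of methylated reads per site was also counted. In the IgG control methylated reads mostly came singly: of the AGAACA sites with 4 reads, 380 had 1 methylated read, 33 had 2, 7 had 3 and none had 4. For TGTTCT these numbers were 74, 10, 1 and 1. In the GR library the TGTTCT sites with 4 reads held 53 with 1 methylated read, 30 with 2, 7 with 3 and 16 with all 4. The AGAACA sites held 17, 1, 2 and 2. Of the TGTTCT sites that had a methylated read, 53 of 106 under anti-Flag and 12 of 86 under IgG had 2 or more, but over all TGTTCT sites with 4 reads such sites were the smaller share under anti-Flag, 0.962% against 2.44%. The former counts describe sites chosen by their methylated reads and are given without a test.

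The mean level at equal depth followed the same order for shallow sites. With 4 reads it was 0.881% (SD over sites 6.83) for AGAACA under anti-Flag and 7.32% (SD 13.1) under IgG. For TGTTCT it was 0.899% (SD 7.42) and 5.13% (SD 12.3). With 7 or more reads the order of the means was the opposite, at 19.5% against 9.80% for AGAACA and 18.3% against 8.31% for TGTTCT. The levels pooled over the reads of this class kept the order of the shallow sites, at 2.55% against 7.39% for AGAACA and 4.80% against 7.74% for TGTTCT. The mean gives each site the same weight, and the pooled level gives it to each read. Without mitochondrial, unplaced and transfected loci the pooled levels were 21.4 against 11.1% for AGAACA and 23.5 against 16.9% for TGTTCT. None of these means and pooled levels was tested.

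Sites at a level of 50% or above, called highly methylated here, were ordered differently at 4 reads and at 7 or more. With 4 reads they were fewer in the GR library, 5 of 936 against 40 of 1595 AGAACA sites (0.534 and 2.51%, adjusted exact p = 3.18e-04) and 53 of 5509 against 12 of 492 TGTTCT sites (0.962 and 2.44%, adjusted exact p = 0.0166). With 7 or more reads they were more frequent in the GR library, 6 of 29 against 2 of 68 AGAACA sites (20.7 and 2.94%, adjusted exact p = 0.0165) and 28 of 149 against 1 of 31 TGTTCT sites (18.8 and 3.23%, adjusted exact p = 0.0484). At 5 and 6 reads no difference passed. For TGTTCT with 5 reads it was 19 of 1075 against 0 of 69 sites, which allows up to 4.35% in the IgG control. Outside repeats the differences at 4 reads did not pass (adjusted exact p = 0.0882 for AGAACA and 0.0868 for TGTTCT). With the threshold at 75% the shares at 4 reads were 0.427 and 0.439% for AGAACA and 0.417 and 0.407% for TGTTCT, and those at 7 or more reads were 13.8 and 2.94% for AGAACA and 18.1 and 3.23% for TGTTCT, and none of these differences passed. At 7 or more reads the AGAACA difference also did not pass within 100 kb of a TSS (adjusted exact p = 0.0775), outside repeats (0.196) or with the threshold at 25% (0.239), and the TGTTCT difference did not pass within 100 kb (0.103). At genes found in both libraries the TGTTCT shares turned to 2.50 and 3.23%, and the AGAACA shares were 10% and 0% and did not pass. None of the highly methylated sites with 7 or more reads was mitochondrial, unplaced or at NR3C1 or DNMT3A, and without those loci the shares were 28 of 119 and 1 of 12 for TGTTCT (adjusted exact p = 0.399).

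Fully methylated sites, with every read methylated, numbered 55 under anti-Flag and 4 under IgG. For AGAACA they were 7 of 1149 sites (0.609%) against 2 of 2100 (0.0952%, adjusted exact p = 0.0192). For TGTTCT they were 48 of 6958 (0.690%) against 2 of 615 (0.325%), a difference of 0.365 points with an interval of -0.505 to 0.690 (adjusted exact p = 0.512). These tests were added after the data had been seen, and they take all depths together. Within a depth the AGAACA difference did not pass in Fisher's exact tests. The adjusted p was 0.215 at 4 reads, 0.168 at 5 and 0.229 at 7 or more. At 6 reads no AGAACA site was fully methylated in either library.

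The highly methylated sites of the libraries shared 1 nearest gene. Under anti-Flag they were nearest to 108 genes and in the IgG control to 58, and DQ576041 was the gene found in both lists (0.926% of the first and 1.72% of the second). Its sites were not the same place, since one lay on chromosome 15 (2 of 4 reads) and the other on chromosome 2 (3 of 4 reads). Of the 108 genes of the GR list 13 had any site in the IgG control, where of all genes with a GR site 20.2% had one. Of the 58 genes of the IgG list 40 had any site in the GR library, where of all genes with an IgG site 55.3% had one. These overlaps were not tested.

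The highly methylated sites with the most reads under anti-Flag were nearly or fully methylated with 1 exception among those named. At FN1, the fibronectin gene, the AGAACA cytosine was methylated in 75 of 76 reads and its TGTTCT partner in 67 of 67. ALS2CR17 and MAP3K13, a kinase gene, had AGAACA sites with 10 of 10 and 9 of 9 reads methylated. PCBP1, an RNA-binding protein gene, had the lower level of 6 of 9 reads. TGTTCT sites on chromosomes 9 and 2 that the file assigns to EEF1A1, a translation elongation factor, and to CR624999 had 36 of 36 and 35 of 36. Those at MAN2B1, a lysosomal mannosidase, and SMOC1, a secreted calcium-binding protein, had 24 of 25 each. None of these positions was listed in the IgG control, where 0.950% of all sites of the GR library were listed.

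The 4 fully methylated sites of the IgG control lay close to a TSS. Both AGAACA sites were at SNORD17, a small nucleolar RNA gene, 121 and 70 bp from its TSS, with 12 of 12 and 10 of 10 reads methylated. The TGTTCT sites were at WDR74, 44 bp from the TSS and in a repeat, with 32 of 32 reads, and at HIST1H1E, a linker histone gene, with 4 of 4. Of the 46 highly methylated AGAACA sites of the IgG control, 40 had 4 reads and 33 of these had 2 of 4 methylated. Of the 108 highly methylated TGTTCT sites of the GR library, 53 had 4 reads, 48 were fully methylated, 37 lay within 5 kb of a TSS and 19 had 10 or more reads. Repeats held 9 of these 108 sites, 1 of the 14 AGAACA sites of the GR library, 27 of the 46 AGAACA sites and 4 of the 13 TGTTCT sites of the IgG control. Of all sites, repeats held 45.1% for TGTTCT and 43.3% for AGAACA in the GR library, and 48.9 and 68.2% in the IgG control. Under IgG, 5 of the 13 highly methylated TGTTCT sites were also within 5 kb of a TSS. Highly methylated AGAACA sites this close numbered 2 of 14 under anti-Flag and 4 of 46 under IgG. Of all TGTTCT sites, highly methylated or not, 11.3% under anti-Flag and 7.15% under IgG were within this distance. For all AGAACA sites it was 13.6 and 6.90%. These counts were not tested against the shares of all sites.

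Sites in repeats, which the deposited sequence column writes in lower case, were a smaller share of the GR library for AGAACA. For AGAACA they were 498 of 1149 sites (43.3%, exact 95% interval 40.5 to 46.3%) against 1432 of 2100 (68.2%, interval 66.2 to 70.2%) in the IgG control (Fisher's exact test, two-sided, adjusted p = 5.22e-42). For TGTTCT the shares were 45.1% (interval 43.9 to 46.3%) and 48.9% (interval 44.9 to 53.0%), and the difference of -3.86 points had an interval of -7.97 to 0.244 (adjusted exact p = 0.0947). Among TGTTCT sites with at least 5 reads it was 45% against 56.9% and passed (adjusted exact p = 0.0252), and with at least 8 reads it was 52.9% against 54.2% and did not. The AGAACA difference did not pass with at least 8 reads (42.9% against 56.8%, adjusted exact p = 0.690). The AGAACA difference was seen in every distance class, and was widest from 5 to 100 kb, at 42.5% against 70.7%. Between the hexamers the repeat share differed more in the IgG control (68.2 and 48.9%) than in the GR library (43.3 and 45.1%), which was not tested. With 4 reads the IgG share of sites with a methylated read was 27.5% inside and 24.1% outside repeats for AGAACA, and 17.3 and 17.6% for TGTTCT. Under anti-Flag it was 1.99 and 2.63% for AGAACA and 1.01 and 2.68% for TGTTCT. These shares by repeat were not tested within a library.

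The GR library held more of its sites close to a TSS. Within 5 kb lay 156 of 1149 AGAACA sites (13.6%, exact 95% interval 11.6 to 15.7%) against 145 of 2100 (6.90%, interval 5.86 to 8.07%) in the IgG control (Fisher's exact test, two-sided, adjusted p = 4.66e-09). For TGTTCT it was 11.3% of 6958 (783 sites) against 7.15% of 615 (44 sites, adjusted exact p = 0.00318). The median distance was 34801 bp under anti-Flag and 64544 bp under IgG for AGAACA, and 43168 and 73878 bp for TGTTCT. Beyond 100 kb lay 27.0 and 30.6% of the AGAACA and TGTTCT sites of the GR library and 41.0 and 42.1% of those of the IgG control. Among TGTTCT sites with at least 5 reads the difference within 5 kb did not pass (a difference of 2.47 points), nor did it among sites within 100 kb of a TSS (16.2 against 12.4%, adjusted exact p = 0.0959) or with a limit of 1 kb (2.72 against 1.63%, adjusted exact p = 0.157). With at least 8 reads the TGTTCT shares turned to 27.5 against 41.7% (adjusted exact p = 0.542), and the AGAACA difference kept its direction but did not pass (47.6 against 32.4%, adjusted exact p = 0.549).

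**Figure D2:**
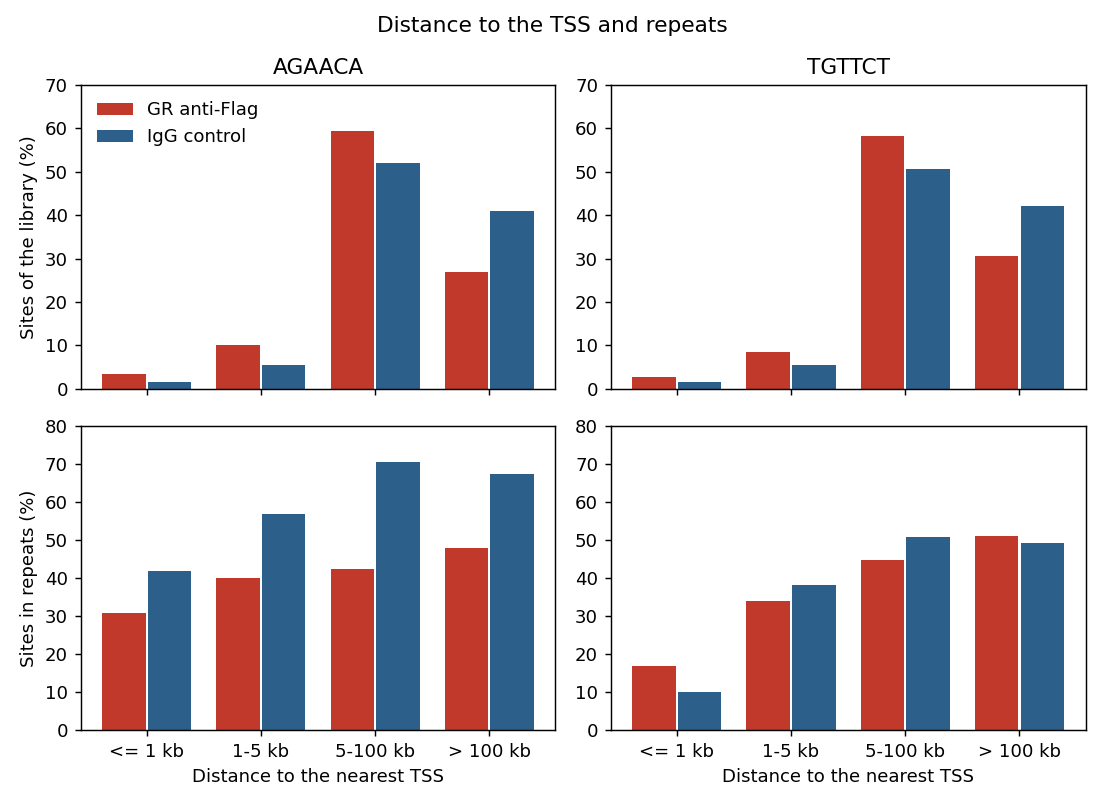
Share of the sites of each library (upper panels, percent) and share of these sites that lie in repeats (lower panels, percent) by distance to the nearest TSS, for AGAACA and TGTTCT. Bars are shares of 1 library without an error. The GR bars are higher up to 100 kb and lower beyond, and among AGAACA sites the repeat share of the IgG control is the higher one in every distance class, up to 70.7%.

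The IgG control had the higher share of sites with a methylated read in every distance class for AGAACA. For TGTTCT it did in every class with a usable share. Among AGAACA sites with 4 reads, the GR library had 0 of 34 within 1 kb, 1 of 87 from 1 to 5 kb, 15 of 558 from 5 to 100 kb and 6 of 257 beyond. The IgG control had 6 of 19, 24 of 88, 229 of 830 and 161 of 658. The IgG share thus stayed between 24.5 and 31.6%, and the GR share between 0 and 2.69%. For TGTTCT sites with 4 reads the GR shares were 5.80% of 138 within 1 kb, 2.41% of 456 from 1 to 5 kb, 2.19% of 3249 from 5 to 100 kb and 0.960% of 1666 beyond. The IgG shares were 1 of 4, 4 of 27, 18.9% of 259 and 15.8% of 202. With 4 sites, the first IgG class gives no usable share. In the GR library 7 of the 8 TGTTCT sites within 1 kb that had a methylated read were highly methylated, whereas beyond 100 kb it was 7 of 16. In the IgG control these counts were 1 of 1 within 1 kb, 3 of 4 from 1 to 5 kb and 3 of 32 beyond 100 kb. No test was run on these classes.

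At 77 cytosines the same position and strand was read in both libraries, which is 0.950% of the sites of the GR library and 2.84% of those of the IgG control. Each position carried its own pair of counts, so the listed position was the same on both sides. Of the 77, 50 lay in repeats and 4 at transfected genes. There the copies behind 1 position may differ between the libraries, which was not tested. In Fisher's exact tests, adjusted over all 77 sites, 7 of the 77 differed (9.09%), each with the higher level under IgG. A further 5 had an unadjusted p under 0.05. The level was higher under IgG at 37 of the 77 and higher under anti-Flag at 4. The other 36 had no methylated read on either side, which at a site of 4 reads allows a level of up to 75%. The called cytosines were both of the NR3C1 hexamer, 4 mitochondrial ones and 1 in a repeat assigned to GUSBL2. Without mitochondrial, unplaced and transfected loci the call was the single GUSBL2 cytosine.

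NR3C1 is the gene of GR and was also carried on the transfected vector. Its AGAACA cytosine was methylated in 9 of 3324 reads under anti-Flag (0.271%, exact 95% interval 0.124 to 0.513%) and in 14 of 379 under IgG (3.69%, interval 2.03 to 6.12%), with an adjusted exact p = 1.46e-07. The TGTTCT cytosine of the same hexamer had 7 of 3393 (0.206%) and 26 of 477 (5.45%), with an adjusted exact p = 1.77e-16. At DNMT3A the TGTTCT cytosine at position 25323066 had 2 of 478 and 1 of 13 reads methylated, which did not pass (adjusted exact p = 0.459). The other shared DNMT3A cytosine, at 25320555, had 1 of 498 and 0 of 10. The reads of these vector-borne genes cannot be told apart from those of the chromosomal copies. The GUSBL2 cytosine, in a repeat of chromosome 6 at 58885659, had 1 of 374 and 6 of 99 reads methylated (0.267 and 6.06%, adjusted exact p = 0.00554).

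The mitochondrial sites gave a further measure of the level at places read in both libraries. Over the 13 shared mitochondrial cytosines the methylated reads were 152 of 7592 under anti-Flag (2.00%) and 64 of 995 under IgG (6.43%). IgG had the higher level at 11 of the 13. The largest called difference was at position 3220, with 9 of 1093 reads (0.823%) against 10 of 106 (9.43%, adjusted exact p = 1.75e-05). The exceptions were positions 4117 and 1211, with 27 of 77 reads (35.1%) and 13 of 131 (9.92%) in the GR library against 1 of 10 and 0 of 12 in the IgG control. Neither of these 2 passed.

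Of the 50 shared cytosines in nuclear repeats, 27 had no methylated read on either side, 22 were higher under IgG and 1 under anti-Flag, and 1 passed. Pooled over reads, the 50 shared cytosines in nuclear repeats had 9 methylated of 1520 reads under anti-Flag (0.592%) and 44 of 700 under IgG (6.29%). The remaining 10 shared sites outside repeats were shallow, with 0 of 82 and 1 of 43 reads. Of the 29 shared sites with 10 or more reads on both sides, IgG had the higher level at 23 and anti-Flag at 4. The other 2 had no methylated read on either side. The pooled level of the IgG control thus lay between 4.66 and 6.43% at transfected, mitochondrial and repeat sites, against 7.32 and 5.13% among all its AGAACA and TGTTCT sites with 4 reads. Under anti-Flag it lay between 0.247 and 2.00%, against 0.881 and 0.899%. No test was run on these pooled levels.

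**Figure D3:**
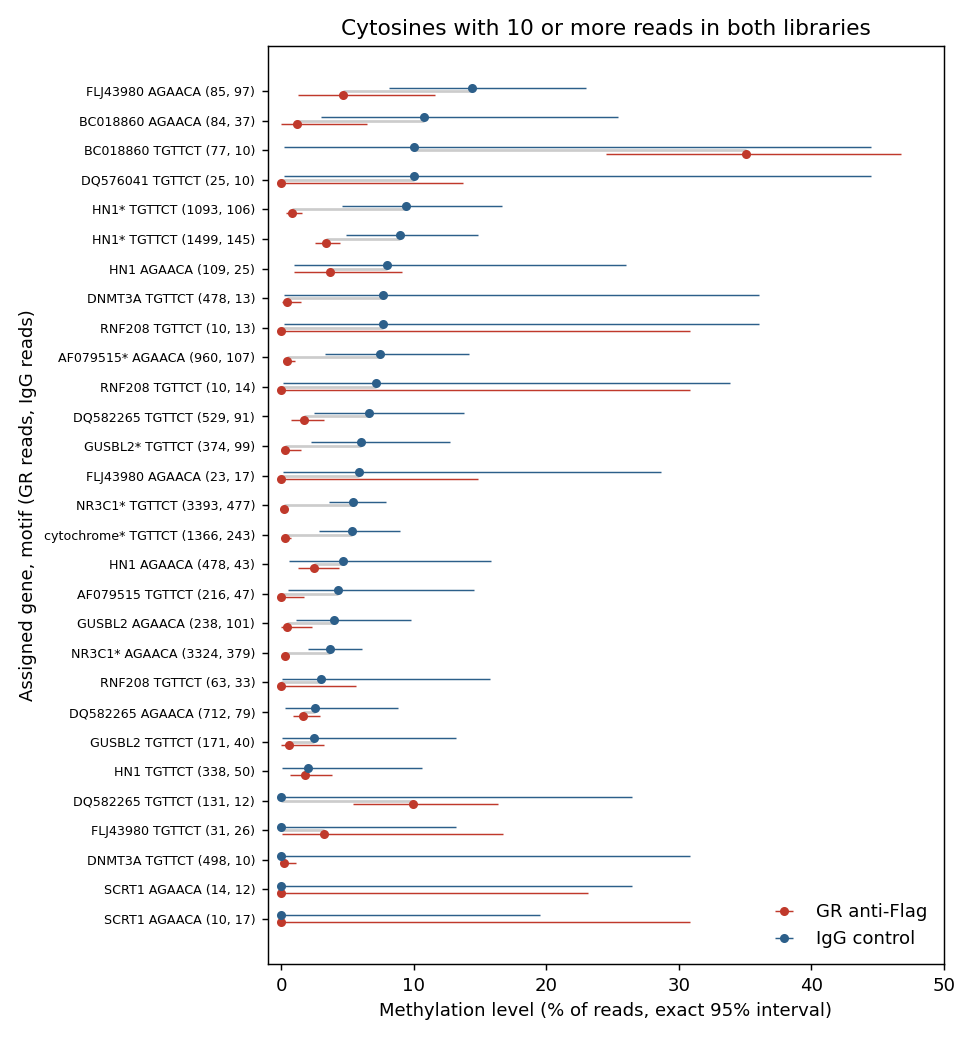
Methylation level (percent of reads) of the 29 cytosines with 10 or more reads in both libraries, 1 line per cytosine with its assigned gene, hexamer and the reads of GR and IgG. Points are levels, bars are exact 95% binomial intervals, and an asterisk marks the 7 cytosines that passed the adjusted test. The IgG point lies to the right of the GR point at 23 cytosines and to the left at 4.

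The nearest genes overlapped more than the positions did. The sites of the GR library were assigned to 4944 genes and those of the IgG control to 1808. The 1000 genes found in both were 20.2% of the first and 55.3% of the second list. Within a hexamer the genes in both were 24.4 and 16.2% of the lists for AGAACA, and 6.85 and 62.4% for TGTTCT. These genes held 32.7% of the sites of the GR library and 65.2% of those of the IgG control. Within 5 kb of a TSS 860 and 167 genes were found, and the 27 in both were 3.14 and 16.2%. By position, 13.1% of the sites of the IgG control had a site of the GR library within 10 kb, and 4.58% of the sites of the GR library had one of the IgG control. A gene found in 1 library alone mostly rested on 1 site, for 2925 of 3944 genes of the GR library and 696 of 808 of the IgG control.

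The 10 shared genes with the most sites were on chromosome 13 in 7 cases. PCDH20 and PCDH9, which encode protocadherins, had 36 and 35 sites under anti-Flag and 25 and 18 under IgG. BC042366, a transcript on chromosome 13, had 35 and 26. SPRY2, an inhibitor of growth factor signalling, had 13 and 14, and DSC3, a desmosomal cadherin on chromosome 18, had 16 and 17. The median distance of these sites to the TSS was 625726 bp for PCDH20 and 189784 bp for PCDH9. Over the 10 genes, 2 of 235 sites in the GR library had a methylated read (0.851%) and 51 of 183 in the IgG control (27.9%), and the share was higher in the IgG control for 9 of the 10. Over all sites the shares were 3.07 and 27.6%, and neither depth nor hexamer was matched here. The exception, MGC70870, had no methylated read at its 26 and 6 sites.

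The difference in methylated reads was also seen where the nearest gene was the same. Among AGAACA sites with 4 reads whose gene was found in both libraries, 7 of 277 (2.53%) had a methylated read under anti-Flag and 261 of 993 (26.3%) under IgG. For genes found in 1 library it was 2.28 and 26.4%. For TGTTCT it was 1.45 and 17.3% at genes found in both, and 2.14 and 17.9% at the others.

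Among genes found in the GR library alone, those with the most sites were LPHN2, an adhesion G protein-coupled receptor, with 11 sites, and FAT4, a large cadherin, with 9. None of the 49 and 39 reads at these was methylated. Over all sites, 3.07% of those of the GR library and 27.6% of those of the IgG control had a methylated read. AK123541 had 8 sites without a methylated read, DQ571479 had 8 with 1 of 39 reads methylated, and KIAA1439 had 7. In the IgG control alone no gene had more than 4 sites. These were AK021841, AK055070, AK097585, C5orf43 and TACR1, the neurokinin receptor gene, with 0 or 1 methylated read each.

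Sites near genes of the glucocorticoid response were few and shallow. The list of genes induced by glucocorticoids held 30 symbols, of which GILZ and TSC22D3 name the same gene. Of these symbols 6 were found near a site under anti-Flag, 2 others under IgG, and none under both. Under anti-Flag these were FKBP5, a chaperone that limits GR signalling, TSC22D3, ZBTB16, KLF9, CRISPLD2 and MAOA. The reads of their 7 sites numbered 35, and 0 methylated reads allow a level of up to 8.57%. Since 3.07% of all sites of the GR library had a methylated read, 7 sites without one are near that share. The site of FKBP5 460 bp from its TSS was the deepest, with 0 of 8 reads methylated. In the IgG control BIRC3, an inhibitor of apoptosis, and TNFAIP3, an inhibitor of NF-kB signalling, had 1 site each with 0 of 4 reads. Against all sites, 0.0863% of those of the GR library and 0.0737% of those of the IgG control lay at listed genes. Over all genes, 20.2% of those of the GR library and 55.3% of those of the IgG control were found in both.

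Listed chaperones and coregulators of GR held 0.0493% of the sites of the GR library and 0.0368% of those of the IgG control. Of 20 listed genes, MED1, a Mediator subunit, NCOA2, a coactivator, and NCOR1, a corepressor with 2 sites, were found in the GR library, and PPARGC1A, a metabolic coactivator, in the IgG control. None of their 19 and 4 reads was methylated, which allows up to 15.8 and 75%. Of 12 listed methylation enzymes and readers, TET2, a methylcytosine dioxygenase, was found with 0 of 4 reads methylated, in the GR library.

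For families of genes with shared names the counts of sites with a methylated read are set beside those of all sites, 3.07% in the GR library against 27.6% in its control. At 59 ZNF genes the GR library had 87 sites, none with a methylated read, and at 19 ZNF genes the IgG control had 19 sites, 6 with one. With olfactory receptor genes as the nearest it was 0 of 60 sites against 11 of 35. OR7E156P on chromosome 13 held 22 and 16 of these sites, at a median distance of 518954 bp. With protocadherin and cadherin genes as the nearest it was 2 of 104 (1.92%) against 18 of 61 (29.5%). Most of these sites were those of PCDH20 (36 and 25) and PCDH9 (35 and 18) on chromosome 13. Their median distances to the TSS were 625726 and 189784 bp. At genes of ribosomal proteins it was 1 of 21 against 2 of 9. At HIST genes the GR library had 3 sites without a methylated read, and the single IgG site was that of HIST1H1E. No test was run on families, and the depths and hexamers of their sites were not matched.

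The share of sites by chromosome differed for a few chromosomes. Of 46 tests, 23 chromosomes for each hexamer, 1 passed with the higher share in the GR library (2.17%) and 4 with the higher share in the IgG control (8.70%). Chromosome 13 passed for both hexamers, with 5.83% of AGAACA sites in the GR library against 9.29% in the IgG control (Fisher's exact test, two-sided, adjusted p = 0.00517) and 6.09% against 10.7% of TGTTCT sites (adjusted exact p = 7.88e-04). For AGAACA, chromosome 1 had 19.2% of the sites of the GR library and 13.3% of those of the IgG control (adjusted exact p = 5.48e-04). Chromosome X had 4.70 and 8.05% (adjusted exact p = 0.00413), and chromosome 8 had 1.91 and 3.86% (adjusted exact p = 0.0208). For TGTTCT the shares of chromosome 1 were 15.5 and 16.1%, and those of X 6.45 and 7.48%, and neither passed. Most sites of chromosome 13 lay beyond 100 kb of a TSS, 65.0% under anti-Flag and 74.3% under IgG, and its part in the distances of the libraries was not tested.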

How the data were processed

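BisChIP-seq libraries were prepared by the authors from HEK-293T cells with anti-Flag or IgG. Repeat runs were merged, and the authors aligned to hg18 with Bismark, counted overlapping mates once, dropped duplicates by SAMtools and required 4 reads per cytosine. For the tools, versions were not given in the sources used here. Deposited tables give raw counts per cytosine, methylated and total, with the sequence, the nearest gene and its TSS distance without a sign.

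Repeated rows (2419, all in the GR tables, with identical counts) were dropped. The hexamer is that of the table, since the sequence column reads AGAACA in every GR table. A site was called a repeat if any letter was in lower case. Mitochondrial sites carry assigned gene names. Shares have exact Clopper-Pearson 95% intervals, and differences have Newcombe intervals. These cover counting error only. A count of 0 is given the limit of 3 counts. Two-sided Fisher's exact tests compared shares, and p-values were adjusted (Benjamini-Hochberg) over 26 tests, 22 planned and 4 added. Shared sites and chromosomes were families of their own, called at an adjusted p under 0.05. Neighbouring sites were treated as independent. Tests were also run on simulated data with independent reads at preset levels. Such data do not hold the uneven levels over sites seen here, so these runs do not check the tests for that.

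Named sites and genes follow a rule: per library and hexamer the 5 sites with the most reads and the 5 highly methylated ones with the most reads, shared sites called or with 10 or more reads, the 10 shared genes and the 5 genes of 1 library with the most sites, and gene lists. The members, lists and tests were chosen with earlier results of these data known. Promoter sequences are from RefSeq (GRCh38.p14). Of 5752 gene names, 3019 had one. Of 64 sites within 250 bp of a TSS, 4 matched a hexamer there, and the window of MGAT1, a gene with several starts, is not printed. Python 3.11.15, pandas 2.3.3, scipy 1.17.1 and matplotlib 3.10.9 were used.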

Additional observations from a re-analysis of the deposited data

How the results depend on the processing

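Of 177 alternative values, 139 kept their direction and their side of the threshold. These include all values from the rows as deposited, where repeated rows of the GR library count as separate sites. The share with a methylated read was lower in the GR library at 4 and 5 reads, and passed, under every alternative that was run. No paired analysis was possible because each group holds 1 library. Most sites have 4 reads, so their levels can take few values. Values here are GR minus IgG differences in percentage points.

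Within 100 kb of a TSS these no longer passed: the share within 5 kb for TGTTCT (3.84), the share with a methylated read at 6 (-6.95) and at 7 or more reads (-26.4) for TGTTCT, and the highly methylated share at 7 or more reads for AGAACA (22.0) and TGTTCT (20.7). Outside repeats the same held for the highly methylated share at 4 reads (-1.78 for AGAACA, -1.96 for TGTTCT) and at 7 or more for AGAACA (22.8), and for TGTTCT the share of sites with 7 or more reads (-1.54) and the share with a methylated read at 6 (-22.9) and 7 or more reads (-31.2). Without mitochondrial, unplaced and transfected loci it held for TGTTCT for sites with 7 or more reads (-0.338) and the highly methylated share among them (15.2). There, 1 shared site was called in place of 7. A limit of 1 kb ended the call of the TGTTCT share near the TSS (1.09). With at least 5 reads the TGTTCT repeat share passed (-11.9) and its share within 5 kb did not (2.47). With at least 8 reads the AGAACA repeat share (-13.9) and share within 5 kb (15.2) did not pass, and the TGTTCT share within 5 kb turned (-14.2, adjusted exact p = 0.542).

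For highly methylated AGAACA and TGTTCT sites, a threshold of 25% gave 11.9 at 7 or more reads for AGAACA, which did not pass. At 75% the differences were -0.0115 and 0.0110 at 4 reads, the latter turned, and 10.9 and 14.9 at 7 or more. For fully methylated sites they were 0.214 and 0.0872 at 4 reads, both turned, and 7.40 and 6.84 at 7 or more. None of these passed. At genes found in both libraries, an alternative added later, the share with a methylated read at 6 reads (-31.6) and the highly methylated share at 7 or more (10) no longer passed for AGAACA, and the latter turned for TGTTCT (-0.726). Differences that did not pass in any form also turned: the AGAACA share with a methylated read at 7 or more reads within 100 kb (1.20), and the highly methylated AGAACA share at 5 reads at 25% (-2.45) and at genes found in both libraries (-0.448). Of the IgG genes, 55.3% were also in the GR library, but 40.9% within 100 kb, 48.1% outside repeats and 16.2% within 5 kb. The cause of these changes was not tested, except that the alternatives behind them hold fewer sites or another threshold by their construction.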
